A study of Homo sapiens with 6 samples.

Results

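The 10 enzymes described here make serine, asparagine and proline or move the single-carbon units that serine gives to folate: PHGDH, PSAT1, PSPH, ASNS, PYCR1, SHMT2, MTHFD2, MTHFD1L, SHMT1 and MTHFD1. They were taken by name, as every probe whose symbol in the platform's probe-to-gene table was one of the 10, which gave 17 of the 47323 probes on the array. All 10 genes had at least 1 detected probe and were tested. The cells were HCT116, a human colorectal carcinoma line, in 3 groups of 2 arrays each. One group expressed a non-silencing control hairpin (NS shRNA), and the others expressed PEA15 shRNA 1 or PEA15 shRNA 2, which target PEA15, a small adaptor protein known to hold ERK kinases in the cytoplasm. All 3 groups therefore carried a hairpin and were grown in the same medium with serum. The labels do not say whether a line was a clone or a pool, or whether the arrays of a group came from separate cultures, so the p-values measure the spread between these arrays, which may be technical.

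Cells make serine from a glycolytic intermediate in 3 steps, catalysed in turn by PHGDH, PSAT1 and PSPH. Serine hydroxymethyltransferase then cleaves serine to glycine and loads its side-chain carbon onto folate, SHMT2 in mitochondria and SHMT1 in the cytosol. In mitochondria MTHFD2 oxidises the loaded folate and MTHFD1L releases formate, and in the cytosol MTHFD1 rebuilds the same folate forms from that formate for purine and thymidylate synthesis. ASNS makes asparagine from aspartate with nitrogen from glutamine, and PYCR1 carries out the last step of proline synthesis in mitochondria. Several of these genes are known targets of ATF4, a transcription factor whose protein rises under amino acid shortage and other stresses.

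Promoters are shown for the 3 genes that passed the test with shRNA 2 against NS shRNA (ASNS, PSAT1 and MTHFD2) and, beside them, for 1 mitochondrial and 1 cytosolic folate gene. Each window runs from 250 bases before to 50 bases after the RefSeq gene start of GRCh38.p14, 5′ to 3′ on the gene's strand, and 7 of the 10 members had such a window. PSPH, PYCR1 and SHMT2 are named only. Capitals mark 2 patterns searched on both strands, TGATGNAA, the core of the composite element that C/EBP and ATF proteins bind, and CACGTG, the E-box that MYC proteins bind.
ASNS promoter window, chr7:97872359-97872658, minus strand: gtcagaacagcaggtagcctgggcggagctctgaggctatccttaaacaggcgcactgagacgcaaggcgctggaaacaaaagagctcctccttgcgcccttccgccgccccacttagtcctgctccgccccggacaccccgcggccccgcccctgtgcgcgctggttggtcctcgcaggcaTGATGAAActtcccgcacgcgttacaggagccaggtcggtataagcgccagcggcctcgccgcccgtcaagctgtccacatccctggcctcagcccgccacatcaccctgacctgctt
PSAT1 promoter window, chr9:78296875-78297174, plus strand: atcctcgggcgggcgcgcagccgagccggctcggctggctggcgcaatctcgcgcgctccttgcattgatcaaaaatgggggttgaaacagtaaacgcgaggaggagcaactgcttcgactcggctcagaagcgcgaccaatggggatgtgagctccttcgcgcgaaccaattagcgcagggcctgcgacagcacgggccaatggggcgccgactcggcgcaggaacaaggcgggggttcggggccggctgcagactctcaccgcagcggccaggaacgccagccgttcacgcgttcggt
MTHFD2 promoter window, chr2:74198365-74198664, plus strand: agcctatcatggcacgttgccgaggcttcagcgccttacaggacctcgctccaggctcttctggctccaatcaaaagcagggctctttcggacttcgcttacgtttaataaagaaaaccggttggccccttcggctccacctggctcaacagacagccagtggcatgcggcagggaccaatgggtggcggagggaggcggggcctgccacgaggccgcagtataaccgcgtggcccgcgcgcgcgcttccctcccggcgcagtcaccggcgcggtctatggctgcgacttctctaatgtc
MTHFD1L promoter window, chr6:150866236-150866535, plus strand: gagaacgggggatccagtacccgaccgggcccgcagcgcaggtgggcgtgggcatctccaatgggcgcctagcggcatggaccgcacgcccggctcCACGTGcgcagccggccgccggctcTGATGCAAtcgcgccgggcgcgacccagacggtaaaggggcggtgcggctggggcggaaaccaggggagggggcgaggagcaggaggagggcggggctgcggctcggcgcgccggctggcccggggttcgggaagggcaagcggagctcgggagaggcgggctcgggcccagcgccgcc
MTHFD1 promoter window, chr14:64388103-64388402, plus strand: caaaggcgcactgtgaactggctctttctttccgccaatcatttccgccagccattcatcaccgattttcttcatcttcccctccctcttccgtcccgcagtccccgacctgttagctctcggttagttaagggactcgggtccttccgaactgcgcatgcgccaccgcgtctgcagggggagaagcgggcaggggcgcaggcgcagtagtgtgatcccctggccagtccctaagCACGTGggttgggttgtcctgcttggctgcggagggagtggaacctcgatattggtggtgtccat
The ASNS window held TGATGAAA at -68 to -61, counted from the start, on the strand of the gene. The first MTHFD1L window held TGATGCAA at -129 to -122 and CACGTG at -154 to -149, and the same bases recurred in 2 overlapping windows of its other starts. The MTHFD1 window held CACGTG at -15 to -10. Neither pattern was in the PSAT1 or MTHFD2 window, nor in those of PHGDH and SHMT1, which are not printed. TGATGNAA was in some window of 2 of the 7 members and in 3.62% of all 35116 windows of this length. CACGTG was in some window of 2 members and in 7.26% of all windows. These counts and shares differ in unit, because the 7 members have 11 windows and a member counted if any of its windows matched. The other ASNS window and the remaining MTHFD1L window, also not printed, held neither pattern. The printed windows of ASNS, MTHFD1L and MTHFD1 are thus windows with a match. A match is a run of letters and was not tied to binding by any value here.

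Signals of 47323 probes were background corrected, quantile normalized and put on a log2 scale, and 41.1% to 43.0% of probes were detected per array. Arrays correlated at 0.995 within groups and at 0.989 to 0.994 between groups. The targeted transcript, PEA15, had log2 levels of 8.97 and 9.15 under NS shRNA, of 8.22 and 8.17 under shRNA 1, and of 7.71 and 7.93 under shRNA 2. The call with shRNA 2 passed (log2 change -1.23 ± 0.12 SE, limma adjusted p = 0.00573), though not without NS shRNA replicate 1 or 2 or shRNA 2 replicate 1 (highest adjusted p = 0.0747), and shRNA 1 did not pass (-0.86 ± 0.12, adjusted p = 0.122). PEA15 with shRNA 1 did pass in 5 of 15 alternative settings, and its change lay between -0.95 and -0.70 in all of them. The 5 were quantile normalization alone, the submitters' lumi values, an offset of 50, a stricter detection filter and a trended variance prior. All 7 colorectal epithelial markers, EPCAM and CDX2 among them, were detected on the 6 arrays. Of the markers of other cells, VIM, COL1A1 and ALB were detected on all 6, and PTPRC, CD3E, HBB, COL1A2 and PDGFRB on 0. Across all rows, the call rule of an adjusted p under 0.05 took 3 of 15967 with shRNA 1 against NS shRNA (3 higher, 0 lower), 271 with shRNA 2 (192 higher, 79 lower) and 530 with shRNA 2 against shRNA 1 (319 higher, 211 lower). The split moved with the scaling: quantile normalization without background correction gave 73 higher and 75 lower with shRNA 1 and 545 higher and 458 lower with shRNA 2.

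With PEA15 shRNA 2 the transcripts of PSAT1, ASNS and MTHFD2 rose against NS shRNA, by 3.08-fold, 3.02-fold and 1.82-fold. PHGDH, PSPH, SHMT2, MTHFD1L and PYCR1 had positive changes between 0.31 and 0.56 on the log2 scale that did not pass the test, and the cytosolic pair SHMT1 and MTHFD1 had changes of -0.08 and -0.02. Thus 3 of 10 members were called higher and 0 lower, where 1.20% of all rows were called higher and 0.495% lower. The median change of the 10 was 0.39 against -0.01 over all rows, and 8 of 10 were above 0. Both shRNA 2 arrays lay above both NS shRNA arrays for these 8 members, which 24.0% of all rows also did, and 7 members had an unadjusted p under 0.05, as did 17.9% of all rows. The count of 8 above 0 was the same under quantile normalization alone, the submitters' lumi values and an offset of 50. In bulk RNA, more cells that express a gene and more of its RNA per cell cannot be told apart.

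**Figure D1:**
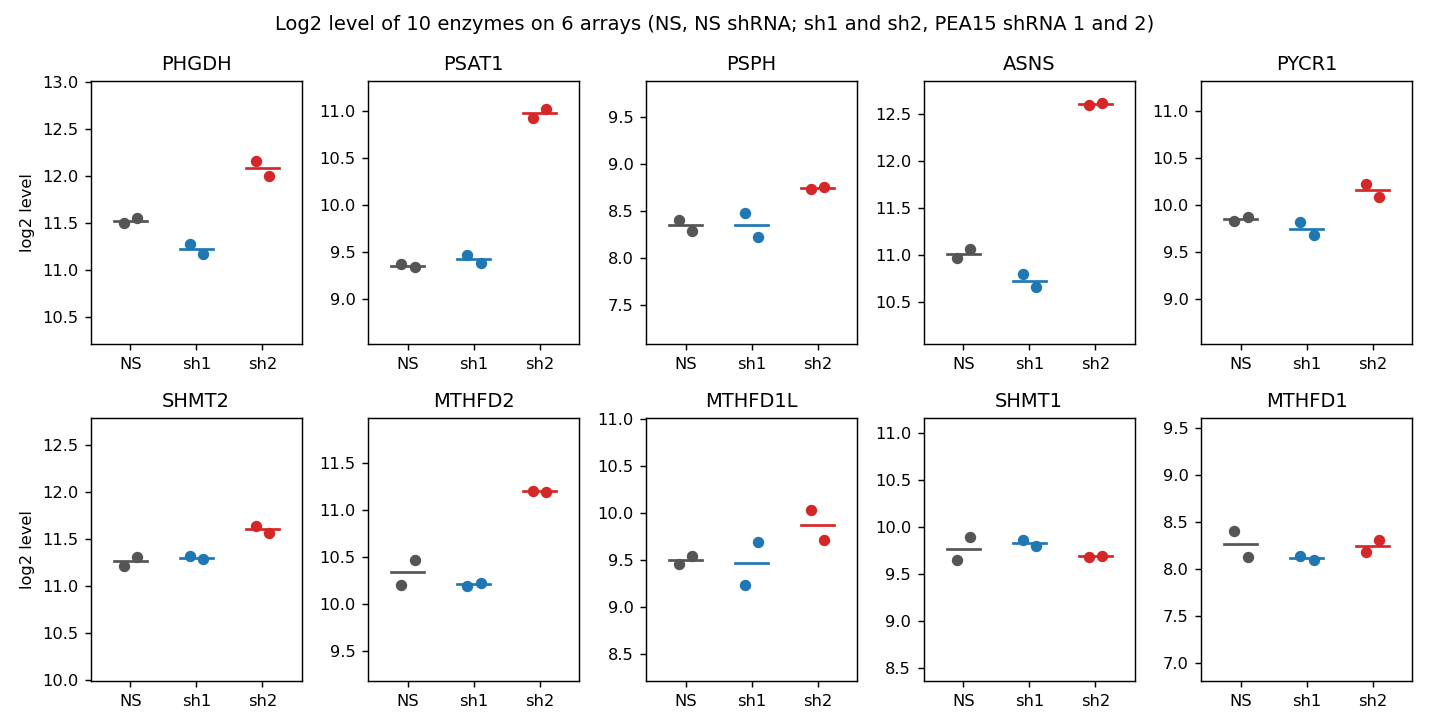
Log2 level (y axis, arbitrary units after background correction with an offset of 16 and quantile normalization) of the brightest detected probe of each of the 10 enzymes on the 6 arrays, by hairpin group (x axis: NS, NS shRNA; sh1 and sh2, PEA15 shRNA 1 and 2); points are arrays and bars are group means, with every panel spanning the same number of log2 units. The shRNA 2 means of PSAT1 and ASNS lie 1.55 to 1.88 log2 units above those of the other groups, while those of SHMT1 and MTHFD1 differ from the NS shRNA means by -0.08 and -0.02.

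In the serine branch, PHGDH, the entry enzyme, read 2846 and 3044 units of raw signal under NS shRNA, 2390 and 2518 under shRNA 1 and 4732 and 4438 under shRNA 2. Its mean log2 levels were 11.52, 11.22 and 12.08. The groups did not overlap, with shRNA 1 lowest and shRNA 2 highest. Its change with shRNA 2 was 0.56 ± 0.11 (95% confidence interval 0.31 to 0.80, limma adjusted p = 0.0517) and with shRNA 1 -0.30 ± 0.11 (-0.55 to -0.06, adjusted p = 0.336), neither of which passed.

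PSAT1, the aminotransferase of the branch, read 712 and 718 units of raw signal with NS shRNA, 727 and 794 with shRNA 1 and 2050 and 2300 with shRNA 2. After normalization these were log2 levels of 9.36 and 9.34, 9.46 and 9.38, and 10.92 and 11.02. Only the shRNA 2 arrays were high, while the shRNA 1 arrays sat narrowly above the NS shRNA pair. PSAT1 rose by 1.62 ± 0.10 with shRNA 2 (95% interval 1.39 to 1.85, limma adjusted p = 0.000719), which ranked 11 by increase among 15967 rows. The shRNA 1 change was 0.07 ± 0.10 (-0.16 to 0.30, adjusted p = 0.849), so an increase above 0.30 lies outside that interval. A second PSAT1 probe, designed to another RefSeq transcript, was detected on 0 of 6 arrays and was not tested.

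PSPH, the phosphatase that releases serine, gave 8.40 and 8.28 with NS shRNA, 8.48 and 8.23 with shRNA 1 and 8.73 and 8.75 with shRNA 2. The shRNA 2 pair was above the other 4 arrays. The change with shRNA 2 was 0.40 ± 0.12 (0.13 to 0.68) and did not pass (adjusted p = 0.139). The second PSPH probe gave 0.59 ± 0.15 (adjusted p = 0.110 among all kept probes), also without passing.

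ASNS, the asparagine synthetase, read 2002 and 2183 units of raw signal with NS shRNA, 1738 and 1786 with shRNA 1 and 6519 and 6765 with shRNA 2. Its log2 levels were 10.96 and 11.06, 10.79 and 10.66, and 12.60 and 12.62. The shRNA 2 arrays were the highest and the shRNA 1 arrays the lowest, with no overlap of any pair of groups. ASNS rose by 1.59 ± 0.10 with shRNA 2 (1.36 to 1.83, limma adjusted p = 0.000885). Against this, shRNA 1 gave a change of -0.29 ± 0.10 (-0.53 to -0.05), which did not pass (adjusted p = 0.343). A second ASNS probe, dimmer on every array, gave 1.46 ± 0.13 with shRNA 2 (adjusted p = 0.00396 among all kept probes) and -0.26 with shRNA 1.

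PYCR1, the proline enzyme, stood at 9.83 and 9.87 with NS shRNA, 9.82 and 9.68 with shRNA 1 and 10.22 and 10.09 with shRNA 2. Again the shRNA 2 pair was above the rest, by a small step. Its change with shRNA 2 was 0.31 ± 0.11 (0.06 to 0.55, adjusted p = 0.190), and its other 2 probes gave 0.43 and 0.29, none of the 3 passing.

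Among the mitochondrial folate enzymes, SHMT2 read 11.22 and 11.32 with NS shRNA, 11.33 and 11.29 with shRNA 1 and 11.65 and 11.57 with shRNA 2. The first 2 groups overlapped and shRNA 2 lay above them. The change with shRNA 2 was 0.34 ± 0.10 (0.11 to 0.58, adjusted p = 0.132).

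MTHFD2, the dehydrogenase and cyclohydrolase, stood at 10.21 and 10.47 with NS shRNA, 10.20 and 10.23 with shRNA 1 and 11.21 and 11.20 with shRNA 2. The NS shRNA arrays differed from each other by more than those of the other groups, and the shRNA 2 pair was clear of both. MTHFD2 rose by 0.86 ± 0.12 with shRNA 2 (0.59 to 1.13, limma adjusted p = 0.0175). The call was lost when any array of the 2 groups was left out, with limma adjusted p = 0.125 and 0.0644 when NS shRNA replicate 1 or 2 was left out and 0.125 and 0.112 when shRNA 2 replicate 1 or 2 was. PSAT1 and ASNS kept their calls in each of these fits.

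MTHFD1L, the formate-releasing synthetase, gave 9.45 and 9.55 with NS shRNA, 9.24 and 9.69 with shRNA 1 and 10.04 and 9.72 with shRNA 2. It varied most within groups of the 10, and the change with shRNA 2 was 0.38 ± 0.17 (-0.03 to 0.78, adjusted p = 0.309).

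The cytosolic enzymes had changes near 0. SHMT1 stood at 9.65 and 9.89 with NS shRNA, 9.87 and 9.80 with shRNA 1 and 9.68 and 9.70 with shRNA 2. The shRNA 2 values fell between the 2 control values. Its interval with shRNA 2, -0.34 to 0.18, excludes a rise of the size seen for MTHFD2. Other SHMT1 probes gave -0.04 and -0.15 with shRNA 2, but 0.25 and -0.41 with shRNA 1, where the chosen probe gave 0.07; none passed, and the last of them was detected on 5 of 6 arrays.

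MTHFD1 stood at 8.40 and 8.13 with NS shRNA, 8.13 and 8.09 with shRNA 1 and 8.18 and 8.30 with shRNA 2. All 6 arrays lay between 8.09 and 8.40, with the NS shRNA pair overlapping both other groups and the shRNA 2 pair above the shRNA 1 pair. Its change with shRNA 2 was -0.02 ± 0.12 (-0.30 to 0.26, adjusted p = 0.948).

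**Figure D2:**
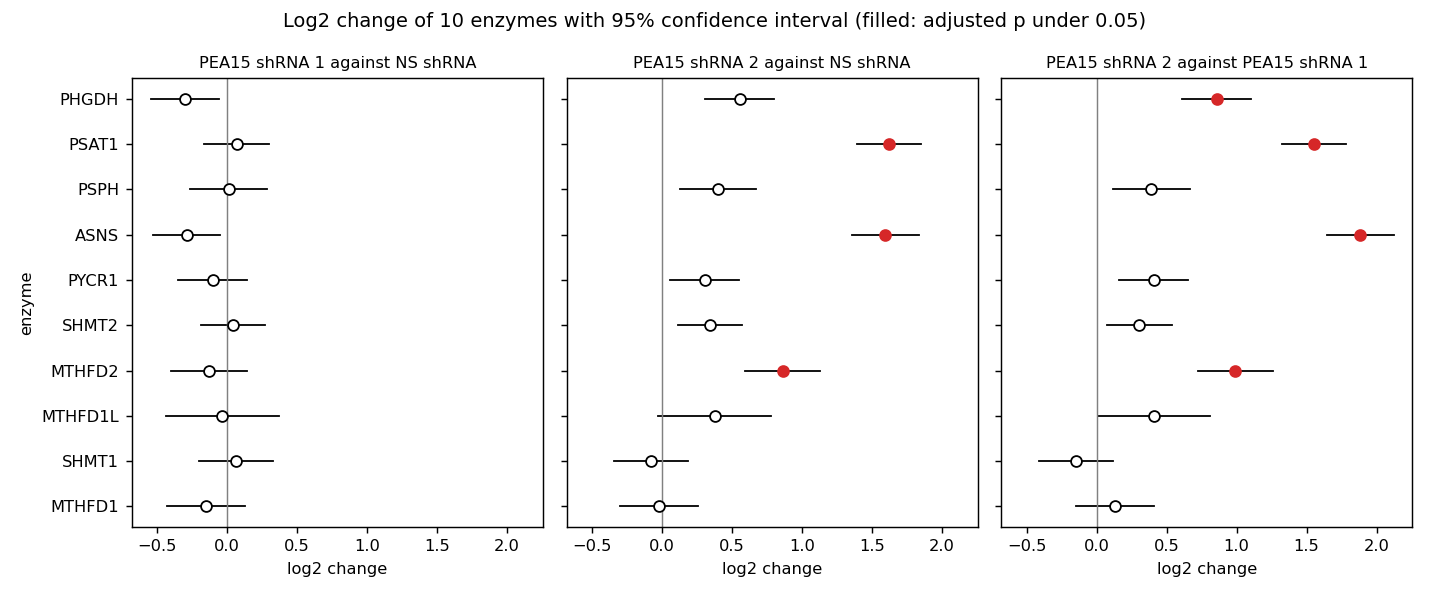
Log2 change (x axis) of each of the 10 enzymes (y axis) in the 3 comparisons, as limma estimates with 95% confidence intervals; filled points passed an adjusted p of 0.05. In the shRNA 2 panels PSAT1, ASNS and MTHFD2 are filled, PHGDH is filled against shRNA 1, and 0 points are filled for shRNA 1 against NS shRNA.

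The mitochondrial and cytosolic arms were compared on each array as the mean log2 level of SHMT2, MTHFD2 and MTHFD1L minus that of SHMT1 and MTHFD1. Levels of different probes are not on 1 scale, so only the movement of this difference between groups carries information. It was 1.27 and 1.44 with NS shRNA, 1.25 and 1.46 with shRNA 1 and 2.03 and 1.83 with shRNA 2. The shRNA 1 values spanned the control values, and both shRNA 2 values were above all 4 others. The shift with shRNA 2 was 0.58 on the log2 scale, a 1.49-fold shift of the balance toward the mitochondrial enzymes, beside a within-group SD of 0.135 over the 3 groups of n = 2. With shRNA 1 it was 0.00. With 2 arrays against 2 the smallest exact two-sided permutation p is 0.333, so no test of this balance was run.

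On the mitochondrial side alone the mean was 10.29 and 10.45 with NS shRNA and 10.96 and 10.83 with shRNA 2, a shift of 0.53. The cytosolic mean lay between 8.93 and 9.02 on the 6 arrays, with a within-group SD of 0.035. Against NS shRNA it shifted by -0.05 with shRNA 2 and by -0.04 with shRNA 1, both without overlap. Single rows lay lower without overlap in 26.1% and 21.7% of cases. The NS shRNA arrays of SHMT1 and MTHFD1 differed in opposite directions, so their mean varied less there than either gene. SHMT1 and MTHFD1 taken singly overlapped NS shRNA with either hairpin. Step by step, the SHMT2 minus SHMT1 difference was 1.57 and 1.43 with NS shRNA, 1.46 and 1.48 with shRNA 1 and 1.97 and 1.88 with shRNA 2. That pair of isozymes, which catalyse the same reaction in the 2 compartments, moved by 0.43 without overlap. The MTHFD2 minus MTHFD1 difference moved by 0.88, also without overlap, from 1.81 and 2.35 to 3.03 and 2.90. The MTHFD1L minus MTHFD1 difference went from 1.06 and 1.42 to 1.86 and 1.41, and its groups overlapped.

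**Figure D3:**
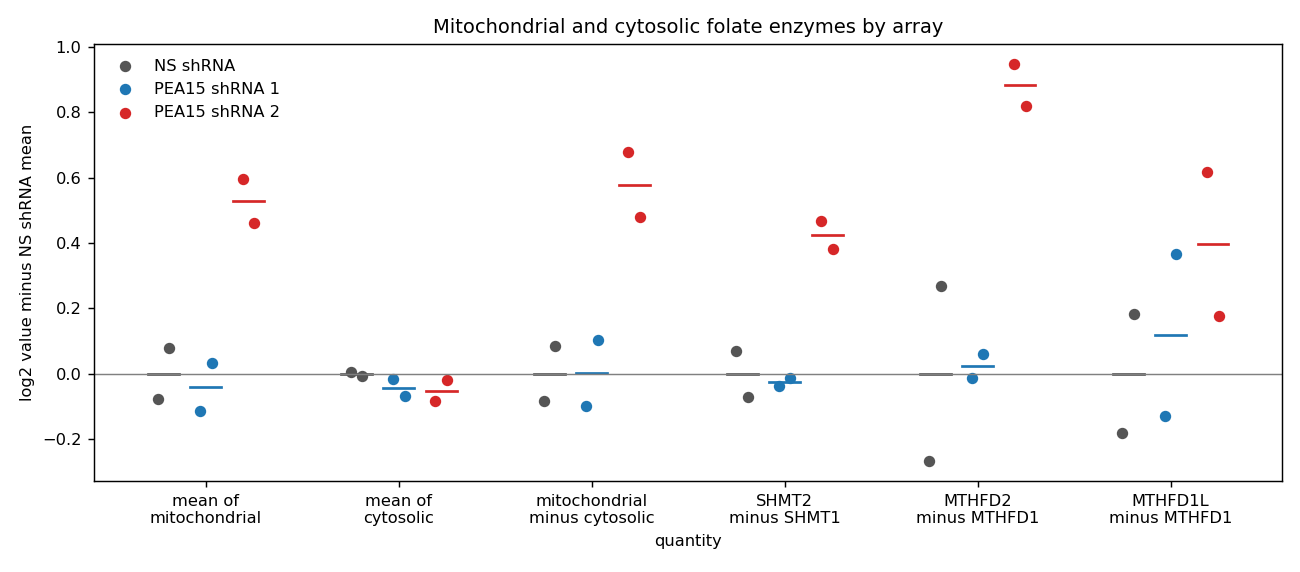
Mean log2 level of the mitochondrial enzymes (SHMT2, MTHFD2, MTHFD1L), of the cytosolic enzymes (SHMT1, MTHFD1) and their differences (x axis), each minus its NS shRNA mean (y axis, log2); points are arrays and bars are group means. The shRNA 2 points of the mitochondrial minus cytosolic difference lie above all 4 other arrays, with a mean of 0.58, and the shRNA 1 mean is at 0.00.

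With PEA15 shRNA 1 against NS shRNA, 0 of 10 members were called by limma, where 0.0188% of all rows were, and 2 had an unadjusted p under 0.05 (PHGDH and ASNS, both lower) against 11.7% of all rows. The median change was -0.07 and 4 of 10 were above 0. Array pairs did not overlap for PHGDH, ASNS and PYCR1, which were lower (21.7% of all rows), and for PSAT1, which was higher (20.6% of all rows). The intervals of PSAT1 and ASNS with shRNA 1 end at 0.30 and -0.05, below the lower limits of 1.39 and 1.36 with shRNA 2.

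The direct comparison of the hairpins, which shares its arrays with the comparisons above, gave ASNS 1.88 ± 0.10 higher with shRNA 2 than with shRNA 1 (1.64 to 2.12, limma adjusted p = 0.000451). PSAT1 was higher by 1.55 ± 0.10 (adjusted p = 0.000766), MTHFD2 by 0.99 ± 0.12 (adjusted p = 0.00931) and PHGDH by 0.86 ± 0.11 (adjusted p = 0.0103). These 4 of 10 members were called higher and 0 lower, where 2.00% and 1.32% of all rows were. Without any 1 of the 4 arrays compared, PHGDH (adjusted p 0.0585 to 0.0735) and MTHFD2 (0.0558 to 0.0729) were no longer called. Unadjusted, 8 members had a p under 0.05 (22.4% of all rows). On both shRNA 2 arrays 9 members lay higher without overlap (26.0% of all rows), and SHMT1 lay lower (27.7% of all rows) with a change of -0.15 ± 0.11 (adjusted p = 0.487).

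The count of members called with shRNA 2 depended on the processing. Against NS shRNA it was 3 of 10 here, 7 with the submitters' lumi values or with quantile normalization alone (3.47% and 3.41% of all rows called higher), 7 with a variance prior that follows the signal (3.03%) and 6 with an offset of 50 (2.97%). Against shRNA 1 it was 4 here and 8, 8, 8 and 7 in the same order of settings, where 5.97%, 5.85%, 5.51% and 5.04% of all rows were called higher. PHGDH, PSPH and SHMT2 were added against NS shRNA in all 4 of these settings, and PYCR1 in all but that offset. With a detection p under 0.01 on all 6 arrays the count was 4 against NS shRNA and 5 against shRNA 1. There 2.82% and 5.07% of all rows were called higher. The members added were PHGDH against NS shRNA (limma adjusted p = 0.0196) and PYCR1 against shRNA 1 (0.0388).

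Around these 10 enzymes, 62 other enzymes and carriers of serine, glycine, folate, purine, methionine, proline, arginine, asparagine and glutamate metabolism were listed, and 45 were tested. With shRNA 2 against NS shRNA, 2 of the 45 were called higher and 0 lower, where 1.20% and 0.495% of all rows were. The median change was -0.03 with 22 above 0, and 10 had an unadjusted p under 0.05 (17.9% of all rows). SLC1A5, a carrier of glutamine and other neutral amino acids, stood at 8.67 and 8.54 with NS shRNA and 9.38 and 9.24 with shRNA 2, and rose by 0.71 ± 0.12 (limma adjusted p = 0.0321). CTH, which releases cysteine in transsulfuration, stood at 6.91 and 6.93 with NS shRNA and 7.43 and 7.58 with shRNA 2, and rose by 0.59 ± 0.10 (limma adjusted p = 0.0392). Both calls were lost without any array of the 2 groups (SLC1A5 highest adjusted p = 0.180, CTH 0.190), with a replicate block (0.0631 and 0.0644) and without a detection filter (0.0721 and 0.0704). That of CTH was also lost without shRNA 1 replicate 1 or 2 (0.0713 each) and with only the groups compared (0.0710). The size for CTH, a dim gene, depended on the background step, with 0.38 under quantile normalization alone and 0.37 with the lumi values.

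SFXN1, a mitochondrial serine carrier, was lower on both shRNA 2 arrays than on the other 4. It stood at 9.45 and 9.21 with NS shRNA, 9.33 and 9.56 with shRNA 1 and 8.69 and 8.67 with shRNA 2. It fell by 0.76 ± 0.13 against shRNA 1 (limma adjusted p = 0.0253), lost without any of those 4 arrays (highest 0.132), with a replicate block (0.0509) and without a detection filter (0.0592), and its change against NS shRNA was -0.65 ± 0.13 (adjusted p = 0.0538). With shRNA 2 against shRNA 1, SLC1A5 and CTH also rose (0.77, limma adjusted p = 0.0179, and 0.86, adjusted p = 0.00931), each lost without any 1 of those 4 arrays (highest 0.105 and 0.0733).

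By list, the 9 tested folate genes outside the members had a median change of -0.11 with shRNA 2 against NS shRNA. They include TYMS, GGH and SLC19A1, and 1 was above 0 (DHFR2, 0.41). Of the 9, 0 were called by limma and 1 had an unadjusted p under 0.05, as did 17.9% of all rows. The sign of that median was the same under the other 3 scalings. The 6 enzymes of purine synthesis, among them GART and ATIC, which use formyl folate, had a median of -0.02, and the 13 glycolysis genes, which supply the precursor of serine, had a median of 0.08. Of either list 0 were called and 0 had an unadjusted p under 0.05. The 8 other proline, ornithine and arginine genes had a median of 0.13, with 0 called and 2 under 0.05 unadjusted. ALDH18A1, which acts just upstream of PYCR1, had a change of -0.07 ± 0.11, and the 6 other asparagine, aspartate and glutamate genes had a median of -0.05, with 0 called and 2 under 0.05 unadjusted. With shRNA 1 against NS shRNA 0 of the 45 pathway genes were called, where 0.0188% of all rows were. Unadjusted, 5 were under 0.05 (11.7% of all rows), and the median was -0.04.

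**Figure D4:**
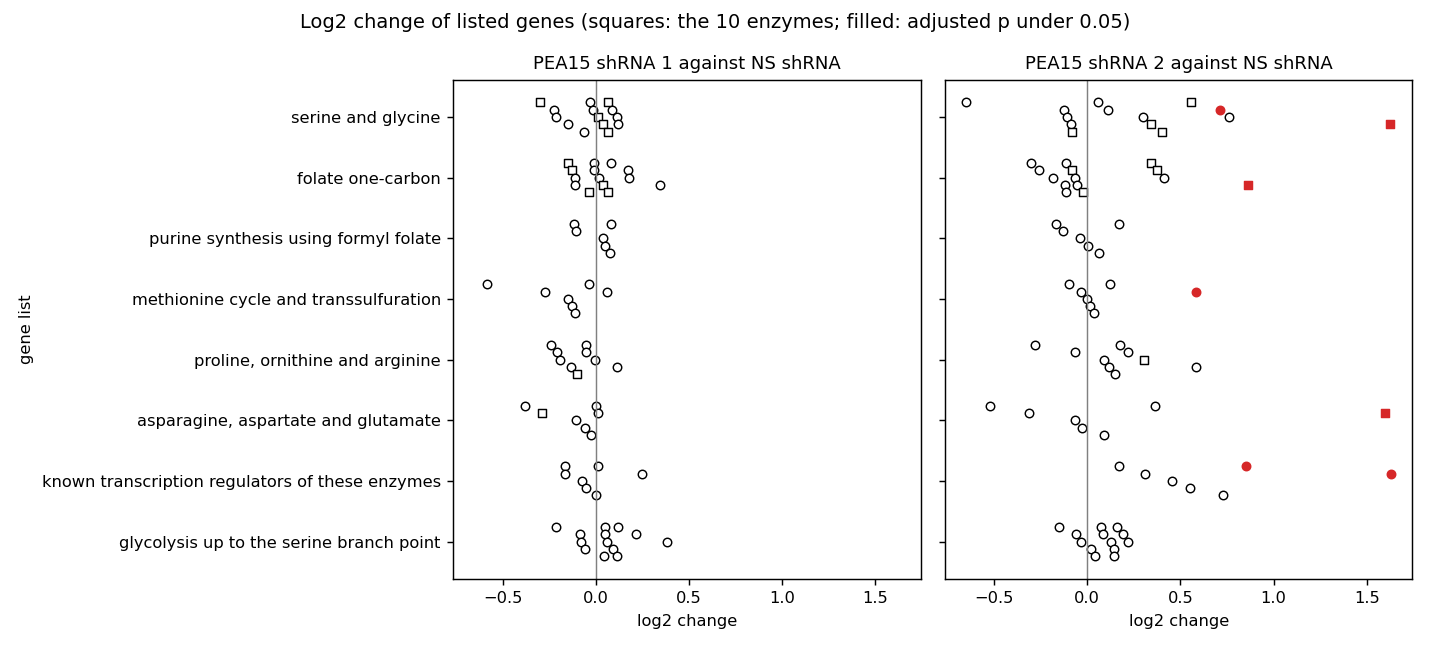
Log2 change (x axis) of every tested gene of 8 lists (y axis) with PEA15 shRNA 1 and PEA15 shRNA 2 against NS shRNA; squares are the 10 enzymes, circles other listed genes, filled symbols passed an adjusted p of 0.05, and a gene in 2 lists appears in both. In the shRNA 2 panel the filled symbols are PSAT1, SLC1A5, MTHFD2, CTH, ASNS, ATF4 and DDIT3, and the purine and glycolysis genes stay within 0.22 of 0.

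Of 9 listed transcription regulators of these enzymes, 7 were tested. All 7 had changes above 0 with shRNA 2 against NS shRNA, with a median of 0.55. Of the 7, 2 were called higher (1.20% of all rows) and 6 had an unadjusted p under 0.05 (17.9% of all rows). All 7 were also above 0 under the other 3 scalings tried, with medians between 0.495 and 0.527. ATF4 read 12.38 and 12.37 with NS shRNA, 12.45 and 12.33 with shRNA 1 and 13.24 and 13.22 with shRNA 2, and rose by 0.85 ± 0.10 (limma adjusted p = 0.00994, lost without any array of the 2 groups, highest 0.0992). DDIT3, a stress-induced C/EBP family member, read 6.88 and 7.10, 7.05 and 6.83, and 8.62 and 8.62, and rose by 1.63 ± 0.12 (limma adjusted p = 0.00183), also in each fit without 1 array. The size for DDIT3, as dim as CTH without shRNA 2, depended on the background step. It was 1.18 under quantile normalization alone and 1.17 with the lumi values. CEBPG had 0.55 ± 0.10 (adjusted p = 0.0517), ATF5 0.73 ± 0.14 (0.0538), CEBPB 0.46 ± 0.11 (0.0981), MYC 0.31 ± 0.10 (0.154) and NFE2L2 0.17 ± 0.12 (0.496).

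Against shRNA 1, all 7 regulators had changes above 0 with shRNA 2, and 4 were called higher, where 2.00% of all rows were. The 4 were DDIT3 by 1.68, ATF4 by 0.84, CEBPG by 0.72 and MYC by 0.47 (limma adjusted p = 0.00146, 0.00915, 0.0168 and 0.0454). ATF4 and CEBPG lost the call without any 1 of the 4 arrays compared (highest 0.0729 and 0.0994), and MYC without any 1 of the 6 arrays (highest 0.188), with a replicate block (0.0667), without a detection filter (0.0746), with every kept probe tested (0.0508) and with only the groups compared (0.0810). With shRNA 1 against NS shRNA 0 of 7 were called, 0 had an unadjusted p under 0.05 and the median was -0.05.

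The members' mean profile, each centred on its own mean, was -0.20 and -0.15 with NS shRNA, -0.23 and -0.27 with shRNA 1 and 0.45 and 0.40 with shRNA 2. The 6 other genes most like it, by Pearson correlation over the 6 arrays among 215 genes with a range of at least 1 log2 unit, were SLC7A1 (0.996), INHBE (0.994), DDIT3 (0.994), PCK2 (0.993), TRIB3 (0.992) and CHAC1 (0.992). SLC7A1, a carrier of cationic amino acids, stood at 9.67 and 9.68, 9.60 and 9.59, and 10.63 and 10.66. PCK2, the mitochondrial form of phosphoenolpyruvate carboxykinase, stood at 7.98 and 7.77, 7.75 and 7.51, and 9.87 and 9.67. The 6 arrays were normalized together and fall into 3 groups, and the shRNA 2 pair is high in each of these 6 profiles. INHBE read 4.47 to 4.64 and CHAC1 4.34 to 4.41 on the NS shRNA and shRNA 1 arrays. These are levels of probes detected on 0 arrays, such as COL1A2 (4.45 to 4.83) and PDGFRB (4.30 to 4.38). Both genes may have passed the detection filter only through the shRNA 2 pair, so their correlations add no support.

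Within the 10, ASNS correlated over the 6 arrays at 0.99 with MTHFD2, at 0.98 with PSAT1 and at 0.97 with PHGDH, but at -0.57 with SHMT1 and 0.29 with MTHFD1. The cytosolic pair correlated at -0.79 with each other, though neither gene was called in any comparison. Their NS shRNA arrays differed in opposite directions, at 9.65 and 9.89 for SHMT1 and 8.40 and 8.13 for MTHFD1. The genes most like SHMT1, among 3566 with a range of at least 0.5, began with GSTM4 (0.970), LAX1 (0.963) and LINC02172 (0.957), and those most like MTHFD1 with PARTICL (0.982), DNAAF9 (0.979) and ZBTB8A (0.969). For SHMT1 the lowest and the highest of the 6 arrays are the NS shRNA pair. For MTHFD1, PARTICL, DNAAF9 and ZBTB8A the highest array is NS shRNA replicate 1, so these likenesses follow spread within a group. GSTM4, LAX1, LINC02172 and PARTICL are also dim, with log2 levels up to 5.58 at most.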

How the data were processed

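Biotinylated cRNA made from column-purified Trizol RNA went on Illumina arrays, per the labels' protocols. The table deposited by the authors holds a linear signal intensity and a detection p-value for 47323 probes on each of 6 arrays. Their series table holds log2 values made with lumi, per the submitters' processing notes (version not given in the sources used here); its columns share 1 distribution by their values. No genome build is named in the labels or the deposited files, and the promoter coordinates are those of RefSeq for GRCh38.p14.

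The intensities went through limma's neqc (limma 3.58.1, R 4.3.3; background from detection p-values, offset 16, quantile normalization, log2), so folds of dim genes are understated. Probes were kept (19781) if some group had a detection p under 0.05 on both its arrays, genes were named through the platform annotation (30113 probes with 1 symbol, 8 with several, 17202 not listed), and each gene took its brightest kept probe without regard to groups. A model with 3 group means was fitted to 15967 rows (3 residual and 4.54 prior degrees of freedom), with two-sided tests, Benjamini-Hochberg adjustment over all rows and a threshold of 0.05. Errors beside changes are standard errors. Other probes of the members were tested in a fit over every kept probe.

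Replicates 1 and 2 of the same number did not deviate together between groups (correlations -0.017, 0.045 and 0.078), so numbers were not used as a block. The number of arrays limits the precision. Named genes were all 10 members, every listed pathway gene that passed in any comparison with the tested regulators, and the 6 genes most like the members' mean, SHMT1 or MTHFD1, of which the first 3 are printed for the last 2; other pathway genes were picked once values were known. The members and lists were chosen with earlier results of these data known. Alternatives were the normalization, offset, filter, probe choice, variance prior, groups fitted, replicate block and each array left out. The procedure was tested on simulated data with normal, independent noise. It recovered 50.7% of 1.5-fold changes with shRNA 1 against NS shRNA and 70.1% with shRNA 2, and 100% of 2-fold changes in both. A change of 1.5-fold or less can therefore fail to pass. Each simulated comparison held 67, 67 and 66 rows changed by 1.5-fold, 2-fold and 4-fold. That many changed rows ease the adjustment, whereas 3 rows were called with shRNA 1 here. Larger changes also failed in these data, such as PEA15 with shRNA 1 (-0.86, limma adjusted p = 0.122) and ATF5 with shRNA 2 (0.73, 0.0538). Promoter windows are RefSeq's.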

Additional observations from a re-analysis of the deposited data

How the results depend on the processing

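Over all rows, the number called with shRNA 1 against NS shRNA, with shRNA 2 against NS shRNA and with shRNA 2 against shRNA 1 was 3, 271 and 530. It was 148, 1003 and 1759 with quantile normalization and no background correction, 162, 1004 and 1785 with the submitters' lumi values, 79, 829 and 1508 with an offset of 50, 125, 896 and 1653 with a trended prior, 29, 592 and 1139 with a detection p under 0.01 on all 6 arrays, 0, 165 and 228 when only the groups compared were fitted, 0, 116 and 247 without a detection filter, and 0, 142 and 333 with a replicate block (unadjusted p under 0.05: 1927, 2952 and 3638). Leaving out 1 array gave 0 to 0 (unadjusted 1440 to 1791), 17 to 165 and 35 to 230, with the lone array of a group assumed to vary like the others. Members called against NS shRNA with shRNA 2 numbered 3, and 7 with quantile normalization, 7 with lumi values, 6 with an offset of 50 and 7 with a trended prior. Against shRNA 1 they numbered 4, and 8, 8, 7 and 8 in those settings. The detection p under 0.01 on all 6 arrays gave 4 against NS shRNA and 5 against shRNA 1. Leaving out 1 array gave 2 to 3 and 2 to 4, and 0 to 0 with shRNA 1. The replicate block changed no call of a member, leaving 0, 3 and 4. The mitochondrial minus cytosolic shift with shRNA 2 was 0.478 to 0.679 against NS shRNA and 0.476 to 0.678 against shRNA 1 without 1 array, and -0.0987 to 0.103 with shRNA 1; its other alternatives moved it by less than the within-group SD. PSAT1 and ASNS were called with shRNA 2 against NS shRNA in 15 of 15 alternatives (highest adjusted p 0.0209 and 0.021), and no called member changed sign. Of the uncalled, SHMT1 changed sign against NS shRNA with shRNA 2 in 1 alternative (range -0.20 to 0.04) and MTHFD1 in 2 (-0.16 to 0.11). The alternatives for PEA15 and the called pathway genes and regulators were added after seeing the data, and the calls lost are given beside each gene. Of the calls gained by these genes, only those of PEA15 with shRNA 1 against NS shRNA are given. Dim second probes carry little signal over background.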
